A study of Mus musculus with 19 samples.

Results

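The regions described here had a called 5-hmC peak in adult CMCs and none at the earlier points. They were chosen by base pairs that the 2 adult peak lists share, merged into regions, on the 19 autosomes, with no peak of the 2 E14.5 and 2 neonatal lists overlapping them by even 1 bp. Of 46528 adult common regions, 9406 met this rule and are called gained, and the other 37122 are called seen earlier. Since the adult, E14.5 and neonatal lists chose the members, the presence of a peak in the adult lists and its absence from the earlier ones is a description and was not tested. The gained regions covered 4.32 Mb, with a median width of 474 bp and a largest width of 2999 bp.

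The study isolated CMCs from male C57BL/6J mice at 4 points, with 2 biological replicates each: embryos at E14.5, pups of 1 to 2 days, adults of 2 months, and adults operated 1 week before by transverse aortic constriction (TAC), in which a ligature on the aortic arch loads the left ventricle with pressure. The labels name no genetic change at any point, and no sham-operated list was analysed here, so that the surgery and the pressure load cannot be told apart. Adult cells came from the left ventricle perfused with enzyme and were sedimented by gravity, whereas E14.5 and neonatal cells came from whole ventricles by repeated digestion and were pre-plated to remove other cells, so that the age and the way of isolation cannot be told apart either. DNA fragments with 5-hmC were enriched with an antibody (hMeDIP), sequenced beside input DNA, and peaks were called for each replicate. By mass spectrometry the paper found less hydroxymethylated DNA in adult than in neonatal CMCs, and still less after TAC. It states that relative enrichment on gene bodies did not reflect these absolute changes. A gained region is therefore a gained peak call relative to input, and no rise in the absolute amount of the mark.

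5-hmC is made from 5-methylcytosine by the TET dioxygenases. It can be an intermediate of DNA demethylation or a lasting mark, and in cells that no longer divide it gathers over the gene bodies (GBs) of active genes. After birth CMCs leave the cell cycle, move from glucose to fatty acids as their main fuel and build the adult contractile and calcium handling apparatus. Pressure overload makes them grow and turns part of this adult programme back.

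Sequences are shown first for the 3 widest gained regions that a peak of both TAC lists overlapped. Each is the 300 bp round the centre of the region, on the forward strand of GRCm38 (mm10) as RefSeq gives it, and capitals mark the CG dinucleotides, the main site of 5-hmC. All 3 were centred in introns: of Man1c1, a mannosidase of N-glycan processing in the Golgi, with a region of 2999 bp; of Zhx2, a zinc finger and homeobox repressor, with 2464 bp; and of Ndrg4, a cytoplasmic protein known from heart development, with 2387 bp.
Man1c1, chr4:134642418-134642717: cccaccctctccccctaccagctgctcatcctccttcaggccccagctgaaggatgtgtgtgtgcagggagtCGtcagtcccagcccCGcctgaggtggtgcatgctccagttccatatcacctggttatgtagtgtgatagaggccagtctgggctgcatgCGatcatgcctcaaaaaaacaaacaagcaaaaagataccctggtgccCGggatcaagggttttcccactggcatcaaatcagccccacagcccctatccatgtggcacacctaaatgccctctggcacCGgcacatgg
Zhx2, chr15:57702464-57702763: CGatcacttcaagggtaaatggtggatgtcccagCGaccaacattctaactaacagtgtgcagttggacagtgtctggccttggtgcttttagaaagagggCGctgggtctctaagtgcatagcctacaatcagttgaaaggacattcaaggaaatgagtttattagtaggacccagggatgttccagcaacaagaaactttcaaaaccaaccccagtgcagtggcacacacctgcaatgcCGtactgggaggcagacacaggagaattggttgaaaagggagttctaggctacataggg
Ndrg4, chr8:95706350-95706649: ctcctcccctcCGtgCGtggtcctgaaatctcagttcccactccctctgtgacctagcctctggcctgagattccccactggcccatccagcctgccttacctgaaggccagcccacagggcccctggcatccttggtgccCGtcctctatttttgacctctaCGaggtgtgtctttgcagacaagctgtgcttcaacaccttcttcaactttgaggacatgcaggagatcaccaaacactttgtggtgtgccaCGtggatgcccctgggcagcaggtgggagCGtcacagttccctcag
These windows held 5, 4 and 6 CGs. The nearest earlier peak lay 718, 1233 and 2000 bp from the region.

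The next windows are those of the 3 widest gained regions with no TAC peak within 1 kb. They were also centred in introns: of Sbf1, a pseudophosphatase of phosphoinositide signalling, with 1701 bp; of Acp6, a lysophosphatidic acid phosphatase, with 1602 bp; and of Ptgr2, a prostaglandin reductase, with 1599 bp.
Sbf1, chr15:89289011-89289310: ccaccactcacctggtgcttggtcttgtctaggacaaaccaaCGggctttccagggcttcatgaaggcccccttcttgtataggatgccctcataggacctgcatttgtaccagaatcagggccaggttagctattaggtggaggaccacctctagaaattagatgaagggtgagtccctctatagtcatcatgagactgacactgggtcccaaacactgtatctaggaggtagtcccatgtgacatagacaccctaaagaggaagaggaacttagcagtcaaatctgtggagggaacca
Acp6, chr3:97162198-97162497: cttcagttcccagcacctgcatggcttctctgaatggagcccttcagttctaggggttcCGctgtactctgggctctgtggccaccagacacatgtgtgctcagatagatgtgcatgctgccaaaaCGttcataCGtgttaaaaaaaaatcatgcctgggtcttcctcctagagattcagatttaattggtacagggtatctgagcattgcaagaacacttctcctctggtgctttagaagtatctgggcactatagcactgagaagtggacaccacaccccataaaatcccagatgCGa
Ptgr2, chr12:84288538-84288837: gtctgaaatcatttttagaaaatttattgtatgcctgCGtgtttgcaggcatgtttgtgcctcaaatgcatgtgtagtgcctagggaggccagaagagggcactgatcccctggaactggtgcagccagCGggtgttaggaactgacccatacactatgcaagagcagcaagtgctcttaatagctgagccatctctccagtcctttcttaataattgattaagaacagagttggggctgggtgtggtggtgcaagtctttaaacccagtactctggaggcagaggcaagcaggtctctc
Their nearest TAC peaks lay 2852, 4135 and 3146 bp away in TAC replicate 1 and 4910, 6200 and 4637 bp away in TAC replicate 2. These windows held 1, 4 and 2 CGs. Over all gained regions, windows with a TAC peak within 1 kb of the region held 1.81 CGs per 100 bp and the others 1.78.

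The widest gained region of Ppara, the nuclear receptor that drives fatty acid oxidation, and that of Auts2, the gene with the most gained regions, are shown because gene results turn on them.
Ppara, chr15:85752150-85752449: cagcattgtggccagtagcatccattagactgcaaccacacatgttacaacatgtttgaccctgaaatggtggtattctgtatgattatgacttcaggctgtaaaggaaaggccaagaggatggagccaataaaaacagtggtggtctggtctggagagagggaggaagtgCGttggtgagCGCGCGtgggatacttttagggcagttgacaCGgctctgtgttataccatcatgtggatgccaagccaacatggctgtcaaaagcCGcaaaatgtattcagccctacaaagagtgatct
Auts2, chr5:131532173-131532472: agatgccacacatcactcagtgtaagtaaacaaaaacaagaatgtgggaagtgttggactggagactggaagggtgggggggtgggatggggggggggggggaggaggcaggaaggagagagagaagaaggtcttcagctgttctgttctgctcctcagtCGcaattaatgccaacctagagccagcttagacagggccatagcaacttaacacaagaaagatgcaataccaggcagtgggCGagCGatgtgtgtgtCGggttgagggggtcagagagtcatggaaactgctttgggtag
The Ppara region measured 845 bp and held 6 CGs in its window, and the Auts2 region measured 644 bp and held 4. Both were overlapped by a peak of TAC replicate 1, and the nearest peak of TAC replicate 2 lay 8 and 842 bp away.

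Many gained regions lay close to an earlier peak. The median gap between a gained region and the nearest earlier peak was 1017 bp, 49.5% lay within 1 kb of one, 776 lay over 5 kb and 193 over 10 kb away. Among gained regions with an earlier peak within 100 bp (n = 671) 78.5% had a TAC peak within 1 kb, and among regions seen earlier that shared at most 100 bp with an earlier peak (n = 1530) 77.5% had one. The median widths of these groups were 461 and 94.5 bp. Many regions of the second group were thus too short to share more, and need not lie at the edge of an earlier peak. These shares are therefore no comparison across the edge of the rule. The gained regions had no earlier peak call of their own, but for 4657 of them an earlier peak stood next to the region.

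The number of gained regions also depended on the 2 adult lists agreeing. Of 31529 peaks of adult replicate 1 without an earlier peak, 26.4% overlapped a peak of adult replicate 2, and of its 72223 peaks with an earlier peak 51.2% did. For adult replicate 2 these shares were 21.4% of 36758 and 43.5% of 84050. In both lists the share without an earlier peak was the lower one.

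The same rule was applied to pairs of lists that mix an adult and a TAC replicate. Adult replicate 1 with TAC replicate 1 gave 8099 regions without an earlier peak, and adult replicate 2 with TAC replicate 1 gave 9370, beside the 9406 of the adult pair. Of these, 3089 (38.1%) and 2990 (31.9%) overlapped a gained region, which touched 32.8% and 31.8% of the gained regions. With TAC replicate 2 the numbers were lower, at 5520 and 7906, and the 2 TAC lists together gave 5356, of which 494 (9.22%) overlapped a gained region. Thus the count of the adult pair lay near the counts of the pairs of an adult list with TAC replicate 1, while the smaller part of those regions overlapped a gained one. These pairs share lists and were not tested against each other.

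The gained regions lay mostly in genes. By their centre, 64.1% were in introns, 7.68% in exons, 21.2% in intergenic sequence, 2.16% at a TSS (up to 1 kb upstream and 100 bp downstream), 2.38% at a TTS and 2.28% in 3′ untranslated regions. The GB, introns plus exons, held 71.8%, beside 69.4% of the regions seen earlier and 39.8% of the autosomal bases. At E14.5 and in neonatal CMCs, common regions with no adult peak (n = 37327) had 47.7% of their centres on the GB. The test compared peaks of each adult list without and with an earlier peak, whether or not the other adult list shared them. Their difference was smaller than the spread between the replicates of peaks with an earlier peak. Peaks without an earlier peak were on the GB in 63.8% and 64.0% of cases in adult replicates 1 and 2, and peaks with one in 63.7% and 62.4%. The difference of the means, 0.818 percentage points, had p = 0.333 (exact two-sided permutation test, n = 2 lists), the smallest p that 2 against 2 values allow, and its sign turned with the annotation and with base pairs in place of centres. Both kinds of peak were read from the same 2 adult lists, so that their values are not independent, and taken as pairs 2 lists cannot go below p = 0.5 in an exact test, which holds for the CG values below too. Inside genes the gained regions were spread over the whole span: 23.1% were centred in the first of 5 equal parts from the start, 18.7% in the middle one and 20.7% in the last, beside 23.0%, 18.8% and 19.3% of the regions seen earlier.

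In base content the gained regions held 1.76 CGs per 100 bp, a G+C share of 49.2% and 15.9% soft-masked repeats, against 1.88, 50.1% and 18.3% in regions seen earlier and 0.851, 41.9% and 33.5% over the autosomes. By adult list, peaks without an earlier peak held 1.45 and 1.52 CGs per 100 bp and peaks with one 1.64 and 1.61. Both values without an earlier peak were below both values with one, a difference of -0.139 (exact two-sided permutation test, p = 0.333, n = 2 lists). Peaks with an earlier peak were also wider, with a median of 626 and 633 bp against 501 and 501 bp, and the part of width in the CG difference was not tested.

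Letters of a few known factor motifs were searched on both strands of the 300 bp windows round the centres. The E-box CANNTG was in 83.5% of the gained windows, 80.6% of windows seen earlier and 80% of all 7986009 autosomal windows of this length. AGGTCA, the core site of nuclear receptors, was in 22.0%, 19.8% and 16.3%, and TCAAGGTCA, the extended site bound by the oestrogen-related receptors and a longer form of the same letters, in 0.936%, 0.894% and 0.648%. GATAA was in 27.9%, 27.8% and 41.9%, the MEF2 motif in 2.30%, 2.11% and 6.86%, and CGCG in 8.60%, 10% and 3.12%. For each of these motifs the share in gained windows lay closer to that in windows seen earlier than to the autosomal one. Base content differs between these windows, and its part in the shares was not tested.

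The TAC lists did not take part in choosing the gained regions. TAC replicate 2 stood apart from TAC replicate 1 in where its peaks lie, and values are therefore given for each list. The centre of the nearest peak of TAC replicate 1 lay within 200 bp of the centre of 21.6% of the gained regions, the fullest bin of distance. For TAC replicate 2 only 4.87% lay within 200 bp, and the fullest bin was 400 to 600 bp, with 7.75%. For this list a distance of up to 1 kb and overlap alone therefore give different pictures, and both are given.

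**Figure D1:**
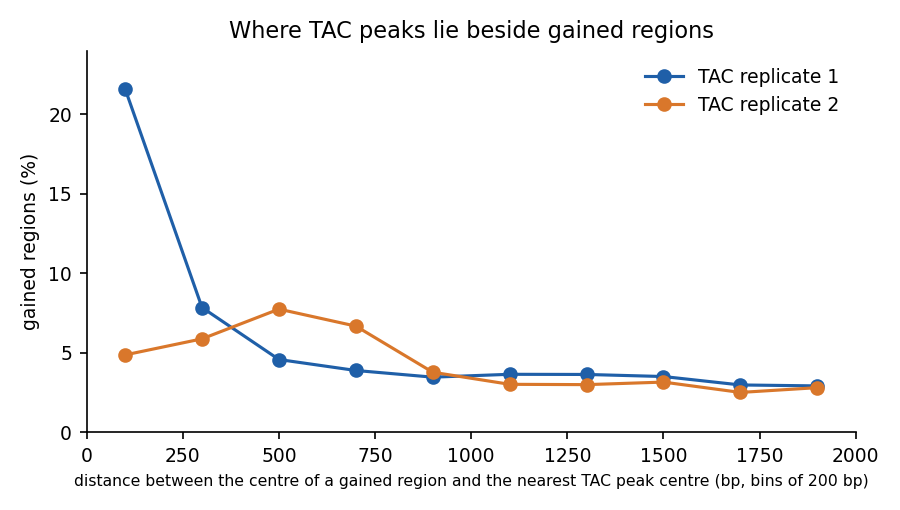
Distance (bp, bins of 200 bp, drawn at their middle) between the centre of each gained region and the nearest TAC peak centre, as a share of the 9406 gained regions (%), for the 2 TAC lists. TAC replicate 1 is highest in the first bin, at 21.6%, and TAC replicate 2 at 400 to 600 bp, at 7.75%.

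A gained region is called kept where a peak of either TAC list overlaps it or lies within 1 kb. Kept, like gained, describes peak calls and not the absolute amount of the mark. Kept were 6316 of 9406 (67.1%), and 3090 had no TAC peak that near. TAC replicate 1 had a peak within 1 kb of 52.6% of the gained regions and TAC replicate 2 of 37.2%. Both lists had one at 2131 regions (22.7%), replicate 1 alone at 2814 and replicate 2 alone at 1371. Over all adult common regions the shares were 64.7% for TAC replicate 1, 50.1% for TAC replicate 2, 79.2% for either and 35.6% for both, so that gained regions were below this background in each. The base pairs within 1 kb of a TAC peak make up 11% and 11.2% of the autosomes.

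Regions seen earlier were kept more often than gained ones in both lists. They had a peak within 1 kb in 67.8% and 53.4% of cases, a mean of 60.6% ± 10.2 (SD, n = 2), against 44.9% ± 10.8 (SD, n = 2) for gained regions. The difference was -15.7 percentage points, -15.2 in replicate 1 alone and -16.1 in replicate 2 alone, with p = 0.333 in the exact two-sided permutation test. Both kinds of region were read from the same 2 TAC lists, so that their values are not independent. By overlap alone the shares were 34.8% and 16.3% for gained regions and 56.5% and 30.6% for those seen earlier. The gap between the 2 TAC lists was about as wide as that between the kinds of region, but within each list the order was the same. The 2 adult lists gave this order between themselves too. In adult replicate 1, 26.4% of peaks without an earlier peak overlapped a peak of adult replicate 2, against 51.2% of peaks with one. In adult replicate 2 these shares were 21.4% and 43.5%. These adult shares count overlaps of all peaks of 1 list, not peaks within 1 kb of common regions. The adult lists also chose the gained regions. Whether TAC had a part in the lower kept share of gained regions was not tested.

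**Figure D2:**
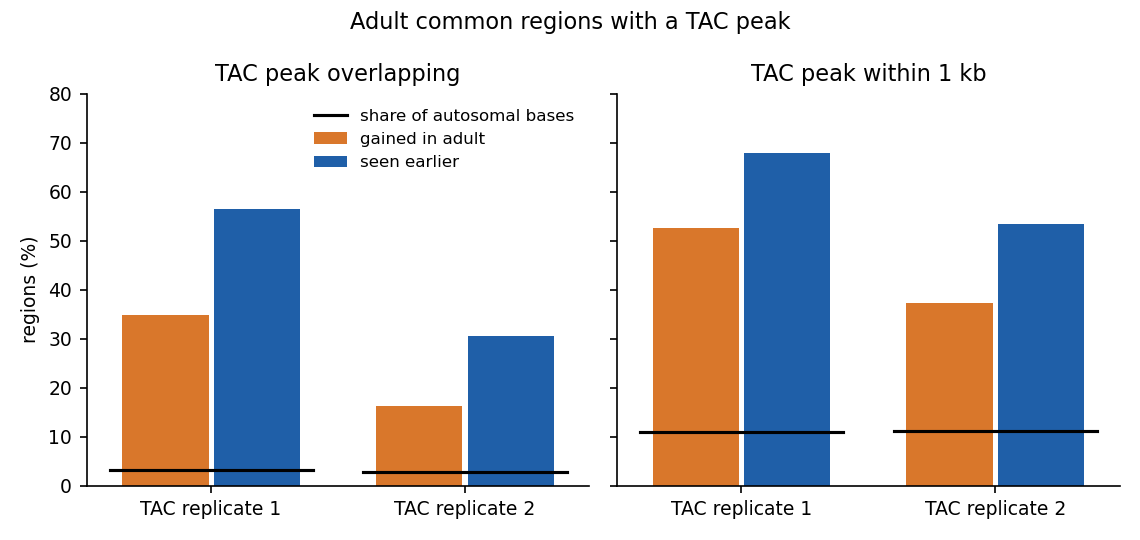
Share of gained regions (orange) and of regions seen earlier (blue) that a TAC peak overlaps (left) or that have one within 1 kb (right), for each TAC list (%). Black lines give the share of autosomal bases under or within 1 kb of a TAC peak, 3.12% and 2.71% on the left and 11% and 11.2% on the right, and in each list gained regions lie below those seen earlier.

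From 250 bp upward wider gained regions were kept more often, and at each width gained regions were below those seen earlier. Of gained regions under 250 bp (n = 1282) 66.4% were kept, and 74.8% of those seen earlier. Of gained regions of 250 to 499 bp (n = 4346) 60.1% were kept. The kept share was 70.0% at 500 to 501 bp (n = 1874) and 79.8% at 502 to 999 bp (n = 1700). At 1000 bp and more (n = 204) it was 91.7%. The matching shares of regions seen earlier were 73.1%, 80.5%, 87.9% and 96.4%. Since regions seen earlier had a larger mean width, 670 bp against 459 bp, these values by width are the closer comparison.

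The kept share fell with the gap to the nearest earlier peak. It was 77.4% where that peak lay up to 250 bp away, 77.8% at 250 to 500 bp, 74.1% at 500 to 1000 bp, 63.7% at 1000 to 2000 bp, 55.9% at 2000 to 5000 bp and 49.7% beyond 5000 bp. In TAC replicate 1 it went from 61.3% in the nearest class to 35.4% in the farthest, and in TAC replicate 2 from 45.8% to 25.8%. Median widths of these classes stayed between 462 and 487 bp. In the classes up to 1000 bp, the 1 kb measure does not tell a TAC peak on the region from one on the earlier peak beside it. By overlap alone 44.3% of all gained regions had a TAC peak, and this share was not taken by gap.

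**Figure D3:**
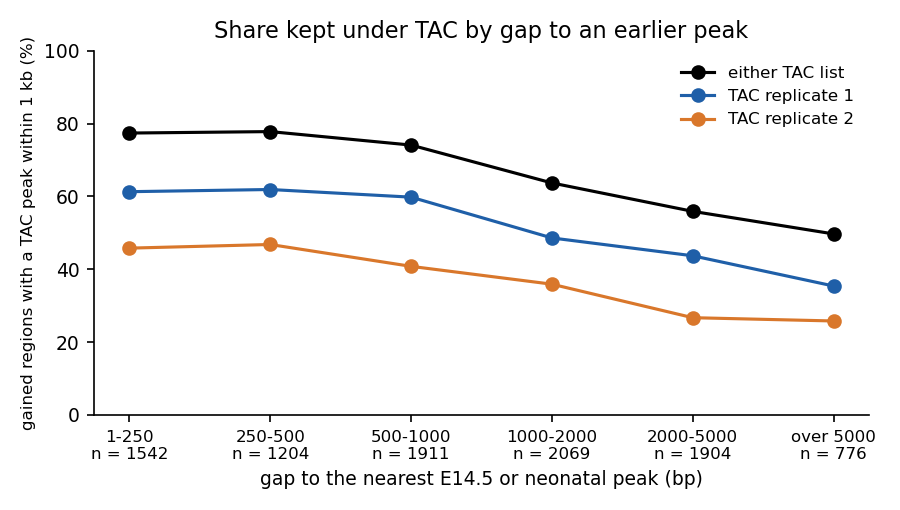
Share of gained regions with a TAC peak within 1 kb (%) by the gap between the region and the nearest E14.5 or neonatal peak (bp), for either TAC list and for each, with the number of regions in each class. Either list gives 77.4% in the nearest class and 49.7% in the farthest, and in each list the farthest class is also below the nearest. A TAC peak within 1 kb need not overlap the region.

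Place in genes went with what was kept. Of the kept regions 74.0% were centred on the GB, of those not kept 67.4%, a difference of 6.56 percentage points that was 7.24 with TAC replicate 1 alone and 2.91 with TAC replicate 2 alone. Regions with a peak of both TAC lists were on the GB in 76.4% of cases. By class, 69.5% of intronic gained regions were kept, 66.8% of exonic, 61.0% of intergenic and 60.1% of those at a TSS, beside 67.1% of all. The highest share, 71.9%, was at a TTS (n = 224), outside the GB. For regions seen earlier the intronic, exonic, intergenic and TSS classes gave 84.1%, 83.8%, 78% and 79.6%, and the TTS class 82.2%. Among the gained regions of at least 250 bp, CG density had a different relation to each list: from below 0.5 to 5 and more CGs per 100 bp, the share near TAC replicate 1 went from 38.9% (n = 198) to 61.8% (n = 55) and the share near TAC replicate 2 from 37.9% to 34.5%.

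Of 20021 autosomal protein-coding genes, 3913 (19.5%) had the centre of at least 1 gained region in their span. The span ran from the first start to the last end of the curated transcripts. Most of them, 2454, had 1 gained region, 206 had 5 or more and 31 had 10 or more. Genes with a gained region were long, with a median span of 50.1 kb against 16.9 kb for all, and 2856 of the 3913 also held a common adult region seen earlier. All gained regions were kept in 2182 genes and none in 991.

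The 8 genes with the most gained regions were Auts2 with 25, Limch1 with 23, Cdh13 with 21, Arhgap26 with 20, Cacna1c, Ptprg and Ptprm with 18 each, and Dapk1 with 16. Limch1, an actin-associated activator of non-muscle myosin, had 28 and 35 peaks of any kind at E14.5, then 28 and 37 in pups, 68 and 67 in adults and 67 and 49 after TAC. Both adult values were above all 4 earlier ones, and TAC replicate 1 was at the adult level. Dapk1, a calmodulin-regulated kinase of cell death and autophagy, had 24 and 20 peaks, 17 and 16, 45 and 45, and 36 and 33 at the 4 points. Here the adult values stood above those of the earlier points, and both TAC values lay between.

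Ptprm, a receptor tyrosine phosphatase of cell contacts, had 62 and 68 peaks at E14.5, then 90 and 108 in pups, 129 and 129 in adults and 114 and 99 after TAC, so that the adult lists were highest. Its relative Ptprg had 55 and 59, 71 and 91, 103 and 92, and 84 and 61. In Ptprg the lower adult value was next to the higher neonatal one. Arhgap26, a GTPase-activating protein, had 50 and 48, 65 and 75, 76 and 96, and 89 and 50, with the TAC lists on either side of the lower adult one.

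Auts2, a nuclear regulator that joins a Polycomb complex, had 117 and 127 peaks at E14.5, then 121 and 145 in pups, 147 and 170 in adults and 148 and 99 after TAC. Cdh13, a cadherin without a cytoplasmic tail that binds adiponectin, had 105 and 118, 136 and 159, 135 and 168, and 143 and 143, and its neonatal and adult values overlapped. Cacna1c, the pore of the L-type calcium channel, had 125 and 94, 153 and 136, 155 and 159, and 148 and 105. In these 3 long genes the gained regions stood among many peaks that were present before, 52, 59 and 92 common regions seen earlier. Since peaks of the adult and earlier lists chose the regions, these counts were not tested.

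**Figure D4:**
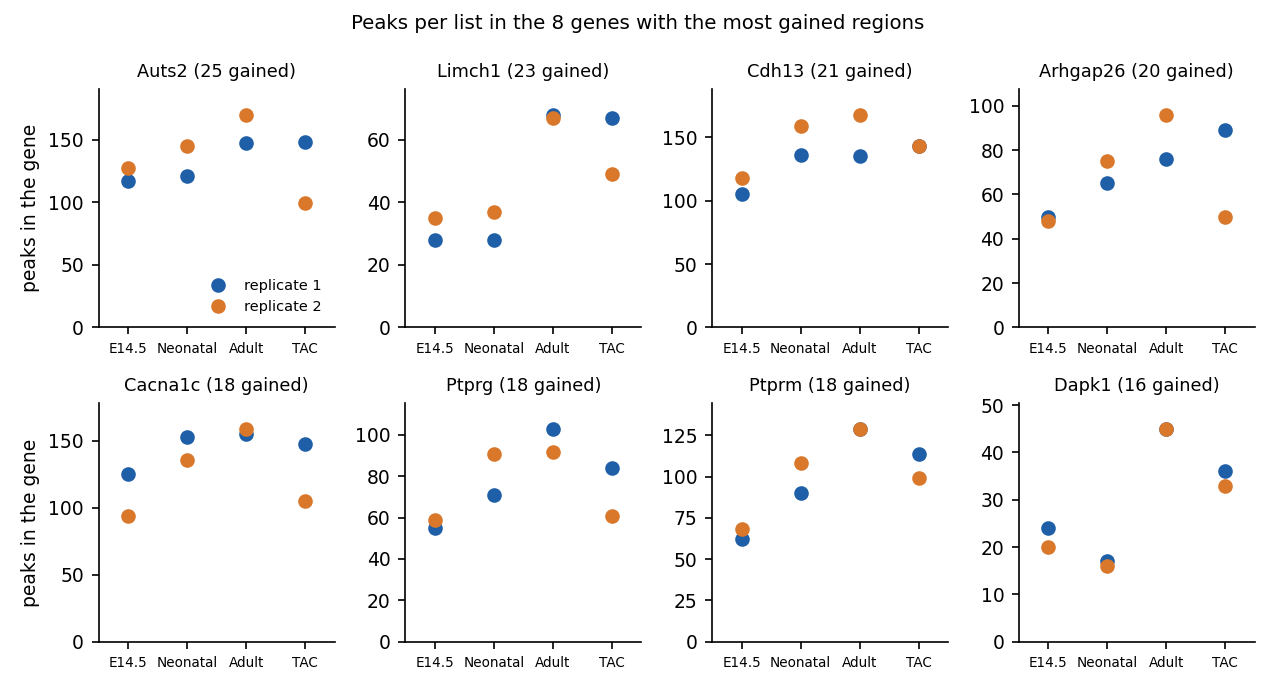
Number of 5-hmC peaks centred in the span of the 8 genes with the most gained regions, 1 point per list, at E14.5, neonatal, adult and TAC (replicates 1 and 2 in blue and orange). In all of these genes but Cdh13 both adult lists lie above every earlier list, narrowly so in Ptprg, Arhgap26, Auts2 and Cacna1c.

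Per 100 kb of span, among genes of at least 10 kb with at least 5 gained regions, dense ones were Stat5a with 19.4, Slc44a2 with 14.6, Mfn1 with 14.1, Ogdh with 11.9, Osbpl2 with 11.5, Nceh1 with 11.3 and Myh14 with 10.8. Ogdh, the first subunit of the 2-oxoglutarate dehydrogenase of the TCA cycle, had 3 and 0 peaks at E14.5, then 7 and 8 in pups, 15 and 18 in adults and 14 and 10 after TAC, and 6 of its 8 gained regions were kept. Mfn1, which fuses mitochondrial outer membranes, had 1 and 3, 6 and 4, 12 and 13, and 7 and 6 peaks, and only 2 of its 7 gained regions were kept. Both TAC values of Mfn1 were below both adult values and at or above the higher neonatal one. Nceh1, a cholesterol ester hydrolase, had 6 and 6, 11 and 16, 24 and 16, and 18 and 12.

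Gained regions near a peak of both TAC lists were most numerous in Ablim1, an actin-binding LIM protein, with 10 of 15. Auts2 had 9 of 25, Fto, an RNA demethylase, 7 of 12 and Cacna1c 6 of 18. Among genes with at least 8 gained regions, all were kept in Apbb2 (10), Rap1gap2 (10), Fhod3 (8) and Foxn3 (8). Fhod3 is a formin of the CMC sarcomere, and it had 47 and 25 peaks at E14.5, then 79 and 79 in pups, 72 and 78 in adults and 85 and 57 after TAC. The lowest kept shares were 3 of 8 in Vps13d, a lipid transfer protein of mitochondria, 4 of 9 in Adk, adenosine kinase, 4 of 9 in Itga9, an integrin, and 4 of 8 in Ank, a pyrophosphate transporter. Vps13d had 10 and 10, 12 and 25, 32 and 40, and 22 and 19 peaks, with both TAC values under both adult ones.

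Metabolic genes held gained regions at a high density. Of 39 genes of fatty acid oxidation and its PPAR and ERR regulators, 19 (48.7%) had 1, beside 19.5% of all protein-coding genes, and the list held 49 regions, 23.0 per Mb of span against 7.49 over all genes. Most were in Esrrg with 10, Acacb with 7, Esrrb with 6 and Acsl1 with 4. Esrrg and Esrrb are oestrogen-related receptors, Acacb makes the malonyl-CoA that restrains fatty acid entry into mitochondria, and Acsl1 activates fatty acids. All 7 gained regions of Acacb and all 4 of Acsl1 were kept, the latter with both TAC lists. Of the 49 regions, 43 (87.8%) were kept, 67.3% with TAC replicate 1 and 57.1% with TAC replicate 2, beside 69.3%, 55.4% and 37.8% over all genes. The list also held 166 and 122 peaks per Mb in TAC replicates 1 and 2, beside 71.3 and 60.8 over all genes. Since any TAC peak within 1 kb counts, the kept share of a gene list is to be read beside this density, whose part was not tested.

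Of 39 genes of the TCA cycle and the respiratory chain, 14 (35.9%) had a gained region, at 25.9 per Mb, and 19 of 28 regions were kept. They included Ogdh with 8, Pcx, pyruvate carboxylase, with 3 and the complex I subunits Ndufa9, Ndufs1, Ndufs4 and Ndufv1 with 2 each. Of 33 genes of glucose uptake, glycolysis and glycogen, 19 (57.6%) had 1, at 24.4 per Mb, and 37 of 47 regions were kept. Insr, the insulin receptor, and Tbc1d4, which holds back glucose transporters, had 6 each, all kept, whereas Hk2, hexokinase 2, kept 1 of 4.

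A high density of gained regions need not set a list apart from its other 5-hmC. Gained regions were 20.9% of the adult common regions centred in protein-coding genes. They were 23.4% in the fatty acid list, 38.4% in the TCA and respiratory chain list (28 gained and 45 seen earlier), 27.0% in the glucose list and 32.3% in the circadian list. In the Wnt, TGF-beta and Hippo list it was 13.7%, below that of all genes, and in the contractile, calcium, junction, transcription factor, hormone receptor and adrenergic signalling lists it lay between 16.6% and 21.9%. The fatty acid list was rich in peaks before the adult point, with 132 and 108 peaks per Mb at E14.5, 159 and 176 in neonatal and 157 and 179 in adult CMCs, so that the neonatal lists were already at the adult level. Over all genes the values were 73.6 and 72.0, 78.9 and 86.3, and 71.9 and 82.7.

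Among sarcomere and Z-disc genes 17 of 49 (34.7%) held a gained region, beside 19.5% of all genes. Of their 47 regions 36 (76.6%) were kept, beside 69.3% over all genes. They held 17.2 per Mb at a median span of 23.1 kb, beside 7.49 per Mb and 16.9 kb. Palld, an actin-bundling protein, had 8, and the M-band and Z-disc genes Myom2 and Mypn 5 each. The myosin heavy chains Myh6 and Myh7 had none. Myh7 had 8 and 7 peaks at E14.5, then 8 and 6 in pups, 1 and 4 in adults and 5 and 3 after TAC, and Myh6 had 8 and 8, 7 and 8, 1 and 2, and 3 and 3, so that in both genes the adult values were below all earlier ones. Calcium handling and ion channel genes held 95 regions in 26 of 46 genes (56.5%), of which 68 (71.6%) were kept. These genes were longer, with a median span of 53.6 kb, and held 13.8 per Mb. Cacna1c had 18, Kcnd3, a channel of the transient outward potassium current, 10, and Itpr1, Ryr2 and Slc8a1 6 each. All 6 were kept in Ryr2, the calcium release channel of the sarcoplasmic reticulum, and 2 of 6 in Slc8a1, the sodium-calcium exchanger. Intercalated disc and costamere genes held 68 in 25 of 36 genes (69.4%), with 8 in Ank2 and 5 each in Ctnna1 and Ctnna3. Of the 68, 46 (67.6%) were kept, below the share of all genes. Their median span was 66.8 kb and their density 9.64 per Mb, so that the share of genes is to be read beside their length.

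Signalling and regulatory lists held gained regions in more of their genes than the 19.5% of all genes, at 12.1 to 19.4 per Mb, but their genes were also longer, with median spans from 31.4 kb for cardiac transcription factors to 109 kb for hormone receptors against 16.9 kb for all. Kept shares are to be read beside the 69.3% of all genes, 55.4% with TAC replicate 1 and 37.8% with TAC replicate 2. Adrenergic and hypertrophic signalling had 146 in 35 of 51 genes (68.6%), of which 109 (74.7%) were kept, with 16 in Rcan2, an inhibitor of calcineurin, 10 in Corin, the protease that matures natriuretic peptides, 9 in Akap6, an anchor of protein kinase A, and 7 in Adra1b, an alpha 1 adrenergic receptor. Rcan2 had 26 and 22 peaks at E14.5, then 40 and 34 in pups, 47 and 55 in adults and 47 and 27 after TAC. Hormone receptors had 50 in 18 of 23 genes (78.3%), of which 30 were kept, 44.0% with TAC replicate 1 and 40.0% with TAC replicate 2, with 7 in Rarb, 6 each in Insr and Nr3c2, the mineralocorticoid receptor, and 5 in Ncoa2. Circadian clock genes had 32 in 9 of 20 genes (45.0%), of which 23 (71.9%) were kept, with 14 in Rora and 6 in Npas2. Cardiac transcription factors had 74 in 18 of 40 genes (45.0%), of which 53 (71.6%) were kept, with 11 in Prdm16 and 10 each in Foxp1 and Tead1. Wnt, TGF-beta and Hippo genes had 37 in 18 of 44 genes (40.9%), of which 28 (75.7%) were kept, with 5 in Lrp5 and 4 each in Lrp6, Wwtr1 and Yap1.

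The remaining lists, apart from the methylation enzymes, held gained regions near or below the level of all genes, of which 19.5% had 1, at 7.49 per Mb, with 69.3% of the regions kept. Cell cycle genes were near it, with 10 gained regions in 7 of 40 genes (17.5%, 7.91 per Mb), and 3 of the 10 (30.0%) were kept. Cdk6, a kinase of the G1 phase, had 3 of these 10, none of them kept. Imprinted genes had 5 in 3 of 21 (14.3%), in Igf2r, Kcnq1 and Slc38a4, which was 9.26% of their adult common regions. Enzymes that write, remove or read DNA methylation had 16 in 7 of 19 genes (36.8%), with 6 in Dnmt3a, 3 in Tet1, 2 each in Tet3 and Mbd2 and 1 in Tet2. Of these 16, 15 were kept with either TAC list but only 3 with both, and the lists went opposite ways against all genes: 43.8% were kept with TAC replicate 1 and 68.8% with TAC replicate 2, beside 55.4% and 37.8%. In the lists of other cell types the density was below that of all genes, but not always the share of genes. Fibroblast and matrix genes had 5 regions in 4 of 20 (20%, 4.80 per Mb), endothelial genes 4 in 3 of 20 (15.0%, 2.88 per Mb) and smooth muscle, pericyte and immune genes 2 in 1 of 20 (5.00%, 2.62 per Mb). The genes with a gained region were Ddr2 with 2 and Col6a3, Gsn and Mmp2 with 1 each, Cdh5 with 2 and Erg and Pecam1 with 1 each, and Notch3 with 2. Among the members without any were Col1a1, Col1a2, Emcn, Acta2, Adgre1, Cd14 and Cd3e. Col1a2, a fibroblast collagen, had 1 peak in neonatal replicate 1, 1 in TAC replicate 2 and none in the other lists.

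**Figure D5:**
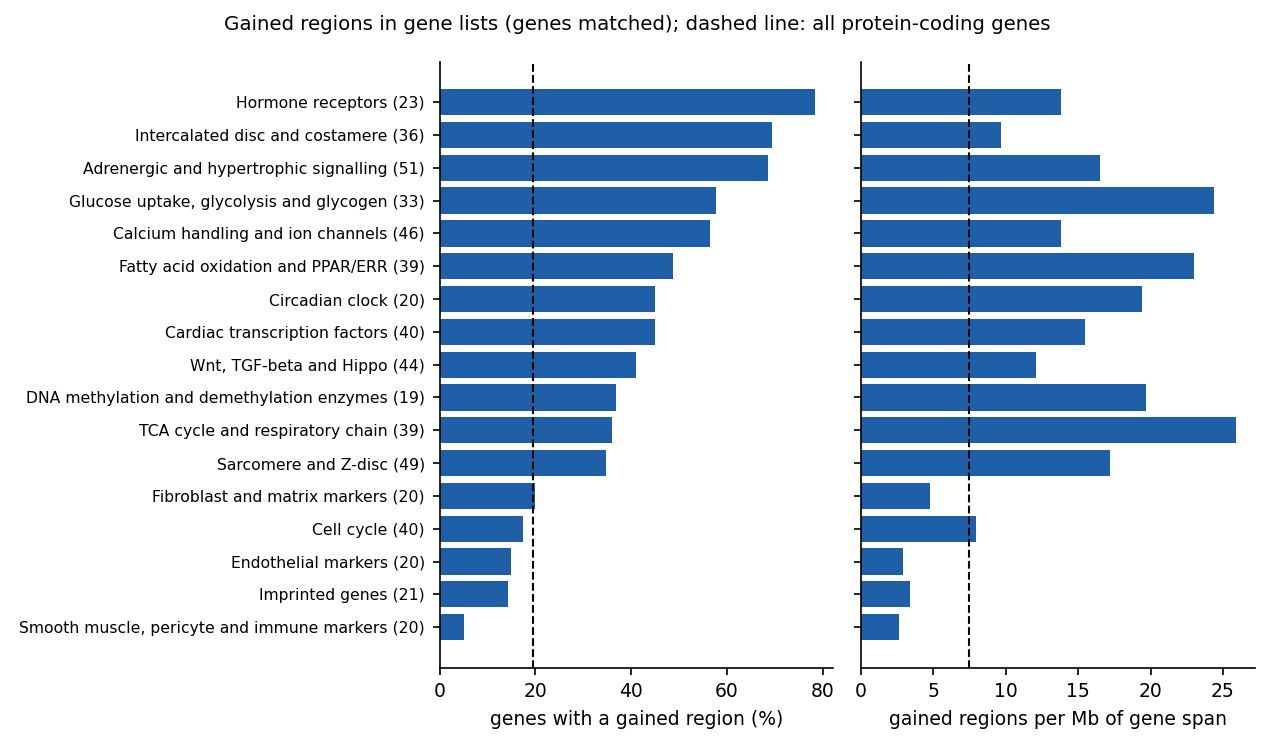
Share of genes with a gained region (left, %) and gained regions per Mb of gene span (right) in 17 gene lists, with the number of autosomal genes matched in parentheses. Dashed lines are the values of all 20021 protein-coding genes, 19.5% and 7.49, and the lists of fibroblast, endothelial and smooth muscle, pericyte and immune genes lie below the line on the right.

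Among further genes that the study names for 5-hmC, Ppara had 6 and 5 peaks at E14.5, then 17 and 15 in pups, 19 and 17 in adults and 15 and 17 after TAC. The neonatal and adult values overlapped and were above both E14.5 values, and its 3 gained regions stood beside 7 seen earlier. All 3 were in introns and kept, 2 with both TAC lists and 1 with TAC replicate 2. Mef2c, a cardiac transcription factor, had 2 gained regions, both kept, and Xirp2, which binds actin at the intercalated disc, had 1, kept with TAC replicate 1. Tet2, one of the enzymes that make 5-hmC, had 1 in an intron, chr3:133537588-133537988, kept with both TAC lists. Myl4, the atrial and fetal myosin light chain, had 2, of which 1 at a TSS was not kept. Gata4, a transcription factor of early heart development, had 1, chr14:63210785-63211236, whose nearest TAC peaks lay 5988 and 8823 bp away. Gata6, Mef2a, Hif1a and Myl3 had none.

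The gained regions were set last against what the TAC lists hold of their own. Of autosomal peaks, 30.4% and 30.4% had no earlier peak in the adult lists and 29.6% and 51.7% in the TAC lists. The difference of the means, 10.3 percentage points, rested on TAC replicate 2 and had p = 1 in the exact two-sided permutation test (n = 2 lists per point). Without TAC replicate 2 it was -0.766.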

How the data were processed

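5-hmC was profiled by hMeDIP sequencing of isolated CMCs at E14.5, neonatal, adult and TAC points, with 2 biological replicates each. The authors aligned reads to mm10 with BWA 0.7.4-r385, removed duplicates with Picard, filtered on mapping quality and called peaks for each replicate against input with HOMER in histone mode. In the deposited lists a peak has a position and a score, which is 1 throughout, so that no ranking by strength was possible. Per the file headers, HOMER normalized the tags of the precipitated DNA to the control in both TAC lists, adult replicate 2 and neonatal replicate 2, and the tags of the control to the precipitated DNA elsewhere. The depth behind each list is unknown here, and a deeper library can give more peaks. The autosomal lists held between 103752 and 151247 peaks, 103752 and 120808 of them in the adult lists and 104477 and 107037 in the TAC lists. Input, sh-control and sh-Tet2 libraries, RNA-seq and H3K27ac data were not used here.

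Regions were intersected, merged and split with Python 3.11.15 and numpy 2.4.6, by code tested on simulated lists against bedtools 2.31.1. The class of a region was that of its centre by curated RefSeq transcripts of GRCm38 (43783 on the autosomes), in HOMER's order of priority. Exact permutation tests compared lists, and counts of regions or genes have no test. Genes named are the 8 with the most gained regions, the 8 with the most per 100 kb, the 4 with the most near both TAC lists, the 4 lowest and the 4 highest in kept share, up to 4 of each of 17 lists with members without any in the lists of other cell types, those at the widest regions and those the study names. A few genes that this rule names are not reported here. Members and lists were chosen with earlier results of these data known. Alternatives were each list left out, a 1 kb gap to earlier peaks, earlier peaks shared by both replicates, lists of equal length, intersections of at least 250 bp, whole adult peaks, TAC overlap alone, 2 kb or both lists, base pairs in place of centres, GENCODE M21, any base pair in the gene and the replicate number as a block. Crossed replicate numbers were added after seeing the data.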

Additional observations from a re-analysis of the deposited data

How the results depend on the processing

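With 2 lists per point an exact permutation test cannot go below p = 0.333, so that no result could pass a threshold and the stability described here is that of values. The lower kept share of gained regions held in all alternatives, from -19.9 to -14.3 percentage points with 1 list left out and from -22.2 to -12.6 otherwise. So did the lower CG density of adult peaks without an earlier peak (-0.193 to -0.0843 with 1 list left out). The number of gained regions did not: it was 4749 where no earlier peak could lie within 1 kb and 25296 where an earlier peak counted only if both replicates of a point shared it. With 1 list left out it ran from 10156 (without E14.5 replicate 2) to 31529 (without adult replicate 2) and 36758 (without adult replicate 1), since each peak of the remaining adult list then counts as common. Genes with a gained region went with it, at 2486 and 6704 in the first pair of alternatives and from 4097 to 8631 with 1 list left out. The kept share was 44.3% by overlap alone, 78.5% within 2 kb and 22.7% with both TAC lists, and 37.2% to 69.5% with 1 list left out. The difference in GB share between adult peaks without and with an earlier peak had no stable sign. It was -1.41 with the 1 kb gap, -1.28 with earlier peaks shared by both replicates, -2.78 by base pairs and -0.126 with GENCODE. It ran from -0.0207 to 1.73 with 1 list left out (the cause was not tested). These peaks came from each adult list. The GB shares of the gained regions and those seen earlier, 71.8% and 69.4%, were not put through the alternatives. The GB share of kept minus not kept regions stayed positive, from 2.91 without TAC replicate 1 to 9.90 without adult replicate 2. The share of peaks without an earlier peak, TAC minus adult, went from -0.766 without TAC replicate 2 to 21.3 without TAC replicate 1.

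With the replicate number as a replicate block the kept share differed by -15.7 points (exact permutation p = 0.5, the smallest 2 pairs allow), and the TAC minus adult share by 10.3 (exact permutation p = 1). Same-numbered adult and TAC lists share only a number; over 1845 bins of 1 Mb their deviations correlated at -0.180, and crossing the numbers, chosen after seeing the data, left the value at 10.3. No depth is known for any list, so a missing peak is no proof of missing 5-hmC, and a gap between a region and a peak depends on where the caller set its edges.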

Other observations

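In 125 of the 3913 protein-coding genes with a gained region, no E14.5 or neonatal peak overlapped the span. These were short genes, with a median span of 5.47 kb, and 82 of them had a gained region kept under TAC. Among all 3913 genes with a gained region, 991 had none kept. Abcf1, an ATP-binding protein of translation initiation, had 0 peaks in each earlier list, 4 and 3 in adults and 2 and 1 after TAC. Ndufv1, the complex I subunit that binds NADH, had 2 and 1 in adults and 0 and 2 after TAC. Psmd4, the ubiquitin receptor of the proteasome, had 2 and 2 and then 4 and 1, and Bmi1, a Polycomb ring finger protein, 3 and 2 and then 2 and 1. These genes were picked after their values were seen.

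Gained regions no more than 10 kb apart formed runs. Alone were 68.9% of them, 282 runs held 3 or more and 26 held 5 or more, the most being 7. Regions seen earlier were not counted in this way, so that runs are not shown to be particular to gained regions. Runs of 7 stood in Adra1b (26.4 kb, 5 of 7 kept), Fbxl20 (30.2 kb, 6 of 7), Dapk1 (21.8 kb, 7 of 7) and Ptprg (22.6 kb, 6 of 7). A run of 6 lay in Mapt, the gene of the tau protein, over 18.9 kb, with all 6 kept, 3 of them with both TAC lists.

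On the X chromosome, which is not part of the gained set, the adult lists held 449 and 396 peaks and the TAC lists 475 and 277, against 2037 and 2414 at E14.5 and 2265 and 2367 in neonatal CMCs. The rule would have found 19 regions there among 116 adult common ones, of which 10 had a peak of TAC replicate 1 within 1 kb and 0 a peak of TAC replicate 2. Gained regions per Mb of known sequence ranged from 2.78 on chromosome 3 to 5.89 on chromosome 11, and their share of adult common regions from 17.7% on chromosome 15 to 22.8% on chromosome 9.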
